A study of Homo sapiens with 24 samples.

Results

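The circadian clock of human cells is a loop of transcription factors and their repressors. Here 10 of its genes are described: PER1, PER2, PER3, CRY1, CRY2, NR1D1, NR1D2, DBP, BHLHE40 and BHLHE41. They were picked by name, as the rows of the gene count table that carry these symbols. All 10 were present among 26641 gene entries, and all 10 were among the 14739 genes with enough reads to test.

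In the textbook loop, the proteins CLOCK (or its relative NPAS2) and BMAL1, encoded by ARNTL, bind short DNA motifs called E-boxes and switch on the PER and CRY genes. PER and CRY proteins then enter the nucleus and hold their own activators back, while the nuclear receptors encoded by NR1D1 and NR1D2 (REV-ERB alpha and beta) repress ARNTL, and BHLHE40 and BHLHE41 compete for the E-boxes. DBP is a direct output of the loop and binds D-box motifs. In cultured cells, serum, growth factors or fresh medium can raise PER1 and PER2 within hours and reset the phase of the loop, and BHLHE40 also responds to growth factors and hypoxia.

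Poly(A) RNA was sequenced from MDA-MB-468 (MB468), an established triple-negative breast cancer line that depends on methionine (Met), and from MB468res-R8 (R8), which does not. R8 is 1 revertant clone that arose from MB468 during long culture on homocysteine, so what separates it from its parent may belong to the clone. Cells of both lines were grown in DMEM with dialyzed serum, vitamin B12, glutamine, cysteine and 100 µM Met (Met+) and collected at 0 h, or were moved to the same medium with 370 µM DL-homocysteine in place of Met (Met-Hcy+) and collected 0.5, 2 and 12 h postmedia switch. Each of the 8 combinations of line and time had 3 libraries, 24 in all. No analysed library came from cells given fresh Met+ medium, so the loss of Met, the change of medium and the time in culture cannot be told apart in any time course below. Time of day was not given in the labels, and 12 h covers only part of a daily cycle.

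Library totals ran from 11745047 to 36495328 reads counted (median 20502897). The labels do not say whether the 3 libraries of a group came from separate cultures, so the p-values measure the spread between libraries, which may be technical. Epithelial markers (EPCAM, CDH1, KRT8, KRT18 and EGFR) were high in every library, whereas the T cell gene CD3E, the leukocyte gene PTPRC and the fibroblast collagen COL1A2 had at most 2, 7 and 1 reads. COL1A1 was the most abundant of the 7 stromal and immune markers, at 14.4 to 73.0 CPM (read counts scaled to a common library size), and the stromal and immune sum was lowest at 12 h in both lines (16.9 to 18.4 CPM in MB468, 31.9 to 41.2 CPM in R8) and highest in R8 at 0 h (56.8 to 76.7 CPM). Its part in the results was not tested. MB468 2 h replicate 2 stood apart: 5 abundant RNAs that lack poly(A) tails summed to 1734 CPM there and to at most 32.5 CPM elsewhere. All 30 clock gene values that use the MB468 2 h libraries were therefore refitted without it, and the 30 kept their sign and their side of the threshold. Other 2 h values include it.

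The E-box is the element through which CLOCK and BMAL1 act, so the members' own promoters were searched for it. RefSeq (GRCh38.p14) gave 13 start sites for the 10 genes, and the 250 bases before each were read on both strands. The perfect E-box, CACGTG, lay before 4 of the genes (4 of the 13 start sites). Its variant, which reads CACGTT on 1 of the strands, lay before 4 more genes (4 start sites). Of 35116 promoter windows of that length, 1 for each start site, 6.34% held the E-box and 4.55% the variant. The windows below run 5′ to 3′ on the gene's strand, with the E-box or its variant (in either orientation) in capitals. Starts are those of RefSeq. PER1 and PER2 have a longer span in GENCODE, and their stretches lie inside the annotated gene, 3917 and 1283 bases from its 5′ end. For NR1D2 and CRY2, RefSeq has an earlier start at the annotated 5′ end and a later one inside the gene. Their stretches lie before the later start, 668 (first copy) and 157 bases from the 5′ end. The windows before the earlier starts held neither the E-box nor its variant. The 250-base windows of PER1, PER2 and CRY2 also overlap an annotated exon of the gene itself.
PER1 (chr17:8152560-8152589, minus strand, 173 bases before the start): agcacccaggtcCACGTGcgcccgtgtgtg
PER2 (chr2:238288790-238288819, minus strand, 197 bases before the start): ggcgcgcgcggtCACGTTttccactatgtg
CRY1 (chr12:107093621-107093650, minus strand, 89 bases before the start): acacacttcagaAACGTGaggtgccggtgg
CRY2 (chr11:45847275-45847304, plus strand, 188 bases before the start): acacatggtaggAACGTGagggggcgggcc
NR1D1 (chr17:40100740-40100769, minus strand, 168 bases before the start): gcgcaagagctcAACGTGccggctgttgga
NR1D2, first copy (chr3:23945954-23945983, plus strand, 155 bases before the start): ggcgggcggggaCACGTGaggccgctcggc
NR1D2, second copy (chr3:23946004-23946033, plus strand, 105 bases before the start): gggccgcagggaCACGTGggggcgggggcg
BHLHE40 (chr3:4979187-4979216, plus strand, 245 bases before the start): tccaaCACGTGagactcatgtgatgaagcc
BHLHE41 (chr12:26125068-26125097, minus strand, 48 bases before the start): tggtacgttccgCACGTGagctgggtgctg
NR1D2 held 2 copies. PER3 and DBP had neither sequence in any window. The D-box TTATGTAA (TTACATAA), which DBP binds, lay before PER3 and NR1D2 (2 start sites), against 0.834% of all windows. The cAMP response element TGACGTCA lay before none of the 10, against 1.65% of windows. Its half-site TGACG, which also lies within the full element, lay before 4 genes (5 start sites), against 21.2% of windows. The D-box variant TTACGTAA and the REV-ERB and ROR element were not found before any member, against 0.105% and 0.140%. A match is a run of letters and was not tested as a binding site.

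Scaled by transcript length, BHLHE40 was the most abundant of the 10 at 0 h in MB468, at 53.9 CPM per kb. CRY1 (15.4), NR1D2 (13.2) and PER3 (10.8) followed on the same scale, PER2 (6.22), DBP (4.91), CRY2 (4.62) and NR1D1 (4.50) were lower, and PER1 (3.42) and BHLHE41 (1.19) were lowest. At 2 h PER1 stood at 9.63 CPM per kb in MB468 and 14.8 in R8. All values that follow are normalized counts, which are read counts divided by each library's effective size and set to the mean size, and serve to compare 1 gene between libraries.

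**Figure D1:**
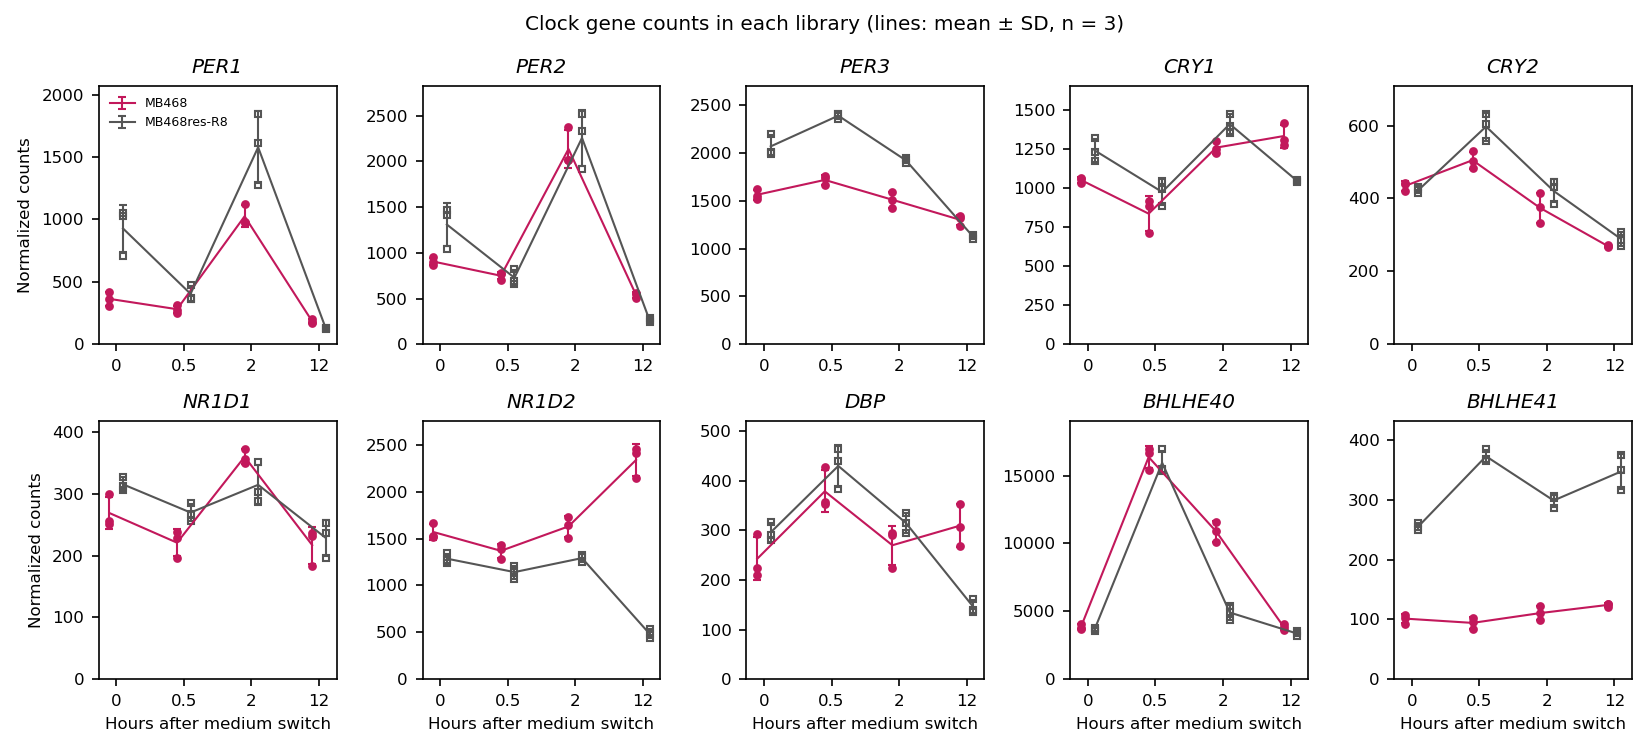
Normalized counts of the 10 clock genes (y axis, from 0) against hours after the switch to Met-Hcy+ medium (x axis, evenly spaced times), with 1 point per library and lines joining group means ± SD (n = 3). PER1 and PER2 are highest at 2 h and lowest at 12 h in both lines, BHLHE40 peaks at 0.5 h, and NR1D2 parts between the lines at 12 h.

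PER1 and PER2, repressors that fresh medium can raise within hours, were highest at 2 h and lowest at 12 h in both lines. Every R8 library was above MB468 at 0 h and below it at 12 h. PER1 (chr17:8140472-8156506 in GRCh38, as all positions here) read 419, 366 and 305 normalized counts in the MB468 0 h libraries and 1051, 1025 and 708 in R8. The ranges did not meet, and R8 was 2.54-fold higher (log2 1.35 ± 0.16 SE, edgeR adjusted p = 1.2e-06). At 0.5 h PER1 stood at 276, 254 and 312 in MB468, overlapping 0 h, and the difference did not pass the test (log2 -0.41 ± 0.18, adjusted p = 0.1). When libraries were scaled by the spike-in RNAs added to them, it did pass (-0.59, adjusted p = 0.0011). R8 fell clear of its 0 h libraries to 478, 365 and 369 (log2 -1.20 ± 0.16, adjusted p = 9.9e-06). The 2 h libraries reached 1126, 972 and 979 in MB468, all above 0 h (log2 1.48 ± 0.16, adjusted p = 2.6e-06, and 1.52 without replicate 2). In R8 they reached 1611, 1848 and 1277 (log2 0.77 ± 0.15, adjusted p = 0.003). By 12 h PER1 had dropped to 168, 200.03 and 182 in MB468 and 122, 131 and 133 in R8, below every earlier library of the same line. That is 2.02-fold below 0 h in MB468 (log2 -1.02 ± 0.18, adjusted p = 7.6e-05) and 7.26-fold in R8 (log2 -2.86 ± 0.19, adjusted p = 2.0e-10).

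From 2 h to 12 h PER1 fell 5.65-fold in MB468 (adjusted p = 2.7e-10) and 12.3-fold in R8 (adjusted p = 3.9e-12), the largest change of any member in any comparison. The spread of R8 at 0 h came mainly from replicate 3, which was low for both PER1 and PER2. A fit without it gave log2 1.51 between the lines at 0 h and -3.04 at 12 h in R8 for PER1.

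PER2 (chr2:238244044-238290102) followed PER1. In MB468 its libraries read 894, 867 and 951 at 0 h, 771, 702 and 774 at 0.5 h, 2375, 2017 and 2009.7 at 2 h and 564, 501 and 553 at 12 h. The R8 libraries read 1468, 1415 and 1044, then 826, 696 and 659, then 2327, 2521 and 1919, and finally 288, 260.5 and 238. None of the 4 time points overlapped another within a line, and R8 lay above MB468 at 0 h, met it at 0.5 and 2 h and lay below it at 12 h. The 0 h difference between the lines was log2 0.55 ± 0.12 (adjusted p = 9.7e-04), and its call was lost with spike-in scaling (0.24, adjusted p = 0.13). The 0.5 h fall passed the test in R8 (log2 -0.85 ± 0.13, adjusted p = 2.7e-05) and not in MB468 (log2 -0.27 ± 0.13, adjusted p = 0.13), but with spike-in scaling it passed in MB468 too (-0.47, adjusted p = 0.0056). The 2 h rise passed in MB468 (log2 1.25 ± 0.12, adjusted p = 4.6e-07, and 1.28 without 2 h replicate 2) and in R8 (log2 0.78 ± 0.12, adjusted p = 2.7e-04). At 12 h PER2 was 1.66-fold below 0 h in MB468 (adjusted p = 5.0e-05) and 5.01-fold below it in R8 (adjusted p = 5.2e-11). A fit on the 0 h and 2 h libraries of R8 alone kept the 2 h values of both genes (log2 0.76 for PER1 and 0.78 for PER2) but not the calls (adjusted p = 0.25 and 0.15).

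PER3, the third PER gene, is dispensable for the loop in mice, and here it had no 2 h peak. It (chr1:7784291-7845177) read 1626, 1548 and 1522 in MB468 at 0 h against 2001, 2010.1 and 2204 in R8, with no overlap (log2 0.40 ± 0.047, adjusted p = 2.2e-09, but 0.11, adjusted p = 0.5 with spike-in scaling). At 2 h its values were 1511, 1598 and 1429.8 in MB468, overlapping 0 h, and 1928, 1952 and 1896 in R8, all just below 0 h. Neither passed the test (adjusted p = 0.54 and 0.29), though the MB468 value was called lower with spike-in scaling (-0.46, adjusted p = 0.0021). The main move was at 12 h, where R8 fell from the higher of the 2 lines to the lower: 1098, 1139.9 and 1129.7 in R8 (log2 -0.88 ± 0.049, adjusted p = 9.3e-19) and 1325, 1243 and 1342 in MB468 (log2 -0.26 ± 0.048, adjusted p = 6.1e-06). At 0.5 h R8 rose to 2414, 2358 and 2407 (log2 0.21 ± 0.046, adjusted p = 3.3e-04, but 0.25, adjusted p = 0.23 with spike-in scaling). The 0.5 h difference in MB468 was small (log2 0.14 ± 0.048, adjusted p = 0.026), changed sign when libraries were scaled by the spike-in RNAs (-0.066) and lost its call without MB468 0 h replicate 2 or 3 (0.13 and 0.12) or MB468 0.5 h replicate 1 (0.11). PER3 shares 868 exon bases with UTS2 on the opposite strand, but UTS2 was listed at 0 or next to 0 in every group. An antisense noncoding gene that shares 482 exon bases with PER3 was not examined.

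CRY1 and CRY2, which bind CLOCK and BMAL1 with the PER proteins, moved in opposite directions at 0.5 h in both lines under the scaling used for all values unless stated, the trimmed mean of M values (TMM). With spike-in scaling the CRY2 rise in MB468 (0.015, adjusted p = 0.95) and the CRY1 fall in R8 (-0.32, adjusted p = 0.11) were not called. CRY1 (chr12:106991364-107093549) went from 1028, 1057 and 1063 at 0 h to 883, 913 and 708 at 0.5 h in MB468 (log2 -0.31 ± 0.068, adjusted p = 3.2e-04). In R8 it went from 1227, 1174 and 1317 to 884, 992 and 1043 (log2 -0.35 ± 0.066, adjusted p = 3.7e-05). Every 0.5 h library was below every 0 h library of its line. At 12 h the lines parted: CRY1 was 1414, 1303 and 1275 in MB468, above 0 h (log2 0.34 ± 0.064, adjusted p = 8.3e-06), and 1035, 1049 and 1046 in R8, below it (log2 -0.25 ± 0.065, adjusted p = 0.0012). Both calls were lost with spike-in scaling (0.13, adjusted p = 0.41, in MB468 and -0.25, adjusted p = 0.13, in R8). The small 2 h rise in MB468, to 1219, 1249 and 1302, passed the test (log2 0.26 ± 0.067, adjusted p = 0.0041, and 0.27 without 2 h replicate 2) but became -0.16 under spike-in scaling. The 0 h excess of R8 over MB468 did the same (log2 0.24 ± 0.065, adjusted p = 0.002, -0.054 with spike-ins).

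CRY2 (chr11:45847118-45883248) did not differ detectably between the lines at 0 h, with 443, 419.9 and 440.2 in MB468 and 414, 425 and 430.3 in R8 (log2 -0.037 ± 0.080, 95% interval -0.20 to 0.12, adjusted p = 0.72), but with spike-in scaling it was called lower in R8 (-0.33, adjusted p = 0.048). It rose at 0.5 h to 503, 483 and 529 in MB468 (log2 0.21 ± 0.079, adjusted p = 0.032) and 556, 603 and 633 in R8 (log2 0.50 ± 0.078, adjusted p = 2.0e-06). At 12 h it fell in both lines, to 267, 269.6 and 272 in MB468 and 308, 287 and 271 in R8, all below every earlier library. These falls were log2 -0.69 ± 0.080 (adjusted p = 7.9e-10) and -0.55 ± 0.083 (adjusted p = 2.9e-07). The MB468 0.5 h call was lost without MB468 0 h replicate 2 (0.20) or without MB468 0.5 h replicate 1 (0.22) or 3 (0.20), and the 2 h value of -0.22 (adjusted p = 0.073) gained one without MB468 2 h replicate 1 (-0.29) and with spike-in scaling (-0.63, adjusted p = 3.6e-04).

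The REV-ERB genes, the second repressor branch, behaved differently from each other. NR1D2 (REV-ERB beta, chr3:23945286-23980617) rose in MB468 at 12 h and fell steeply in R8. Its 0 h libraries read 1513, 1529 and 1667 in MB468 and 1242, 1269.7 and 1343 in R8, and the values at 0.5 and 2 h stayed between 1068 and 1730.1 in both lines. At 12 h MB468 stood at 2460.3, 2408 and 2146, above every other library of either line (log2 0.58 ± 0.059, adjusted p = 2.7e-11). R8 stood at 439.9, 534 and 476, below every other library, 2.67-fold under its 0 h level (log2 -1.41 ± 0.069, adjusted p = 4.3e-20). R8 was also lower at 0 h (log2 -0.29 ± 0.062, adjusted p = 1.4e-04). The 0.5 h falls were small, -0.19 ± 0.062 in MB468 (adjusted p = 0.017) and -0.17 ± 0.063 in R8 (adjusted p = 0.041), the R8 one lost its call with spike-in scaling (-0.12, adjusted p = 0.7), and each lost its call when certain single libraries were left out, namely MB468 0 h replicate 3 (-0.14), MB468 0.5 h replicate 3 (-0.14), R8 0 h replicate 2 (-0.18) or 3 (-0.14) and R8 0.5 h replicate 2 (-0.18) or 3 (-0.12). At 2 h in MB468 the value of 0.054 did not pass the test (adjusted p = 0.65) and became -0.36 with spike-in scaling (adjusted p = 0.014).

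NR1D1 (REV-ERB alpha, chr17:40092793-40100589) moved less. It read 256, 252 and 299.6 in MB468 at 0 h and 307, 328 and 313 in R8, where all libraries were higher but the difference missed the threshold (log2 0.24 ± 0.11, adjusted p = 0.053, and -0.062 with spike-in scaling). Without MB468 0 h replicate 3 it passed (log2 0.31, adjusted p = 0.023). In MB468 it rose at 2 h to 374, 351 and 356 (log2 0.43 ± 0.11, adjusted p = 0.003, and 0.45 without 2 h replicate 2, but 0.010 with spike-in scaling), while R8 at 2 h read 304, 352 and 289 and overlapped its 0 h libraries. At 12 h it was lower in both lines, 237, 183 and 232 in MB468 (log2 -0.28 ± 0.11, adjusted p = 0.016) and 253, 237 and 197 in R8 (log2 -0.46 ± 0.11, adjusted p = 2.6e-04). The MB468 call was lost without MB468 0 h replicate 3 (-0.21) or 12 h replicate 2 (-0.17). The 0.5 h fall in MB468 (log2 -0.29 ± 0.11, adjusted p = 0.037) was lost without MB468 0 h replicate 1 (-0.31) or 3 (-0.22) or 0.5 h replicate 1 (-0.20). NR1D1 shares 473 exon bases, 17.98% of its main transcript, with THRA, the thyroid hormone receptor alpha gene on the opposite strand, and the kit does not mark strand. THRA itself was higher in R8 at 0 h (502 ± 31.3 in MB468 and 815 ± 24.7 in R8, SD, n = 3) and lower at 12 h (log2 -0.40 in MB468 and -0.33 in R8), so reads of the 2 genes in the shared bases cannot be told apart.

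BHLHE40 (DEC1, chr3:4979437-4985323), which competes with CLOCK and BMAL1 for E-boxes, gave the largest 0.5 h response of the 10. It rose from 3801, 3715 and 4086 at 0 h to 16679.8, 15431 and 17003 at 0.5 h in MB468, a 4.24-fold rise (log2 2.08 ± 0.068, adjusted p = 6.1e-17). R8 went from 3541, 3678 and 3790.1 to 16936, 15525 and 15384, a 4.35-fold rise (log2 2.12 ± 0.069, adjusted p = 4.0e-17). The 2 lines overlapped at 0 and 0.5 h and separated at 2 h, although at 0 h R8 was called lower with spike-in scaling (-0.37, adjusted p = 0.01). MB468 was still at 11607, 10123 and 10905 (log2 1.50 ± 0.068 against 0 h, adjusted p = 9.6e-14, and 1.55 without replicate 2). R8 had come most of the way back, to 4974, 5409.6 and 4347 (log2 0.43 ± 0.068, adjusted p = 2.7e-04, but 0.38, adjusted p = 0.17 with spike-in scaling). At 12 h both were close to 0 h, at 3631, 3847 and 4062 in MB468 (log2 -0.0057 ± 0.068, 95% interval -0.15 to 0.14, adjusted p = 0.95) and 3362, 3187 and 3509.6 in R8 (log2 -0.13 ± 0.069, interval -0.27 to 0.015, adjusted p = 0.11). All 3 R8 libraries were below its 0 h range, and without R8 12 h replicate 3 the difference passed (log2 -0.19, adjusted p = 0.041). The antisense BHLHE40-AS1, with which it shares exon bases, reached group means of 12.7 to 37.7 normalized counts.

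BHLHE41 (DEC2, chr12:26120030-26125037), the close relative of BHLHE40, had its highest mean at 0.5 h in R8 but not in MB468, and set the lines apart at every time. Its MB468 libraries ran from 83.3 to 126 across all 4 times and its R8 libraries from 250.1 to 386, with no overlap. At 0 h they read 92.9, 103 and 108 against 262, 250.1 and 255 (log2 1.34 ± 0.11, adjusted p = 6.4e-14). R8 rose at 0.5 h to 367, 365 and 386 (log2 0.54 ± 0.094, adjusted p = 1.1e-05), while MB468 read 102, 83.3 and 96.3 and overlapped 0 h (log2 -0.091 ± 0.12, adjusted p = 0.67). At 12 h both lines were above 0 h, at 121, 126 and 125 in MB468 (log2 0.30 ± 0.11, adjusted p = 0.016) and 350.3, 317 and 375 in R8 (log2 0.44 ± 0.094, adjusted p = 8.9e-05). The MB468 call was lost without MB468 0 h replicate 1 (0.26) and with spike-in scaling (0.081, adjusted p = 0.72). SSPN (sarcospan) overlaps 162 exon bases on the opposite strand, 4.33% of the main transcript of BHLHE41. It was also higher in R8 at 0 h (84.0 ± 13.2 in MB468 and 243 ± 24.9 in R8, SD, n = 3, log2 1.54 ± 0.14, adjusted p = 2.0e-12).

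DBP (chr19:48630030-48637379), the output factor of the loop, had its highest mean at 0.5 h in both lines and fell in R8 by 12 h. At 0 h it read 211, 225 and 292 in MB468 and 290.0, 317 and 281 in R8, with overlap (log2 0.31 ± 0.12, adjusted p = 0.026). That call was lost with spike-in scaling (0.0015, adjusted p = 0.99) and without MB468 0 h replicate 1 (0.23) or 2 (0.27) or R8 0 h replicate 2 (0.27). The 0.5 h libraries were all higher, at 353, 356 and 427 in MB468 (log2 0.65 ± 0.12, adjusted p = 2.3e-05) and 384, 465 and 441 in R8 (log2 0.53 ± 0.11, adjusted p = 2.1e-04). At 2 h both lines overlapped their 0 h values, with 294, 225 and 291 in MB468 and 294, 335 and 316 in R8. At 12 h R8 dropped to 140.3, 135 and 161, below every other library (log2 -1.02 ± 0.12, adjusted p = 4.1e-09). MB468 read 306, 268 and 354, overlapping 0 h but called higher (log2 0.38 ± 0.11, adjusted p = 0.0032, and 0.14 with an adjusted p of 0.45 under spike-in scaling). DBP shares 661 exon bases, 30.5% of its main transcript, with the sphingosine kinase gene SPHK2 on the opposite strand. SPHK2 went from 380.3 ± 20.4 to 813 ± 31.8 in MB468 (log2 1.10 ± 0.083, adjusted p = 5.9e-15) and from 385 ± 25.1 to 441 ± 40.1 in R8 (log2 0.20 ± 0.088, adjusted p = 0.049), so at 12 h in MB468 reads of the 2 genes cannot be told apart in the shared bases.

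Counted over the 10 genes, 7 differed between the lines at 0 h, 6 of them higher in R8 (PER1, PER2, PER3, CRY1, DBP and BHLHE41) and 1 lower (NR1D2). Over all tested genes 53.6% differed there and 25.3% were higher in R8. At 0.5 h 7 passed in MB468 (4 higher and 3 lower, against 34.1% of all genes) and 9 in R8 (5 higher and 4 lower, against 33.7%). At 2 h 5 rose in MB468 (PER1, PER2, CRY1, NR1D1 and BHLHE40), where 16.5% of all genes passed and 8.5% rose, and 3 rose in R8 (PER1, PER2 and BHLHE40), where 4.34% passed and 2.46% rose. The 3 genes that passed in R8 were also called in MB468. Without MB468 2 h replicate 2 the uncalled values in MB468 were -0.090 for PER3, -0.22 for CRY2, 0.016 for NR1D2, 0.30 for DBP and 0.14 for BHLHE41.

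At 12 h against 0 h 9 passed in MB468, 4 higher (CRY1, NR1D2, DBP and BHLHE41) and 5 lower (PER1, PER2, PER3, CRY2 and NR1D1), while 70.6% of all genes passed. In R8 9 also passed, 1 higher (BHLHE41) and 8 lower, against 61.7% of all genes and 29.7% lower. A fall of 2-fold or more was called for PER1 in MB468, and for PER1, PER2, NR1D2 and DBP in R8, against 8.85% and 7.96% of all genes. The median log2 change over the 10 was -0.13 in MB468 and -0.72 in R8, and over all genes -0.016 and 0.00093. Between 2 and 12 h 7 passed in MB468 (1 higher and 6 lower, 69.9% of all genes) and all 10 in R8 (1 higher and 9 lower, 62.9%). BHLHE41 was the 1 that was higher in R8 (log2 0.22 ± 0.092, adjusted p = 0.034), and it lost its call without any 1 of R8 2 h replicates 1, 2 or 3 or R8 12 h replicates 1 or 3 (0.14 to 0.23). DBP from 2 to 12 h in MB468 gained one without MB468 12 h replicate 2 (0.29, from 0.19).

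**Figure D2:**
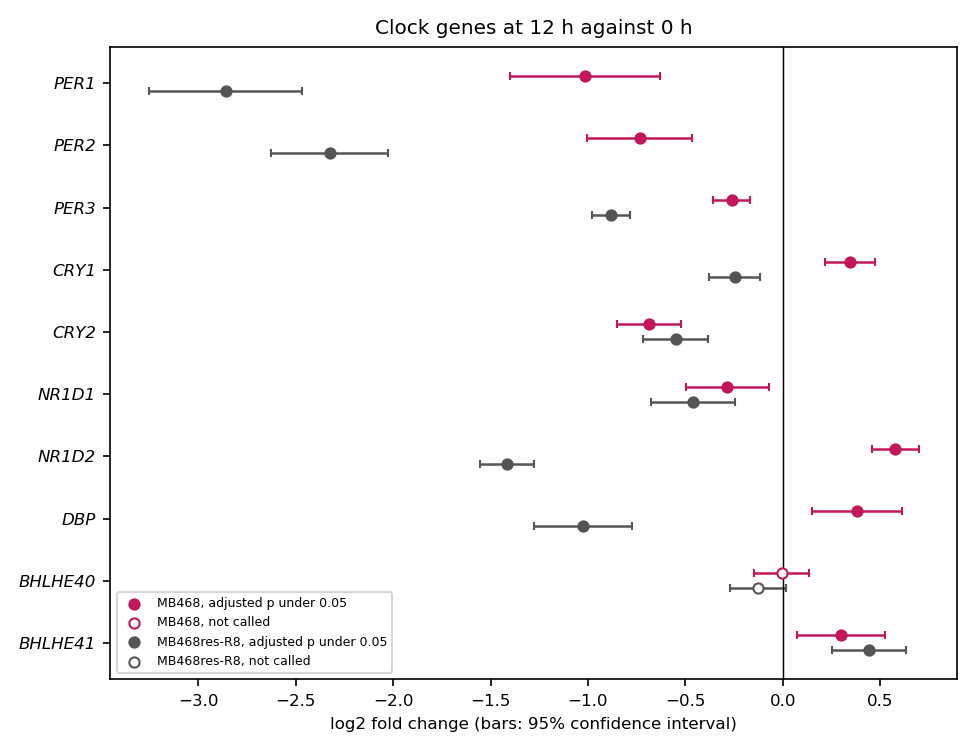
Log2 fold change at 12 h against 0 h (x axis) for the 10 clock genes (y axis) in MB468 and MB468res-R8, with 95% confidence intervals as bars and filled points for adjusted p under 0.05 by edgeR. PER1 and PER2 are lower in both lines and further from 0 in R8, and CRY1, NR1D2 and DBP lie on opposite sides of 0.

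Whether the response differed between the lines was tested directly, as the change in R8 minus the change in MB468. At 12 h 6 of the 10 differed, all lower in R8, against 56.8% of all genes and 28.2% lower. The difference was log2 -1.99 ± 0.091 for NR1D2 (adjusted p = 7.3e-21), -1.84 ± 0.27 for PER1 (adjusted p = 9.8e-06) and -1.59 ± 0.19 for PER2 (adjusted p = 9.6e-07). DBP (-1.41 ± 0.17, adjusted p = 3.7e-09), PER3 (-0.62 ± 0.068, adjusted p = 3.4e-10) and CRY1 (-0.59 ± 0.091, adjusted p = 5.4e-07) completed the 6. Both PER1 and PER2 started higher in R8, and all changes from 0 h within a line share its 0 h libraries. For CRY2, NR1D1, BHLHE40 and BHLHE41 the difference did not pass, with 95% intervals of -0.098 to 0.37, -0.48 to 0.12, -0.32 to 0.078 and -0.15 to 0.44.

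At 2 h 1 of the 10, BHLHE40, responded differently (log2 -1.07 ± 0.096, adjusted p = 5.4e-08, and -1.12 without MB468 2 h replicate 2), against 5.09% of all genes and 2.84% lower. PER1 (-0.72 ± 0.22, adjusted p = 0.074), PER2 (-0.46 ± 0.17, adjusted p = 0.15) and NR1D1 (-0.42 ± 0.15, adjusted p = 0.098) did not pass, with or without that library (-0.75, -0.50 and -0.44 without it). At 0.5 h BHLHE41 alone passed (log2 0.63 ± 0.15, adjusted p = 0.011), against 3.01% of all genes, and it lost its call without MB468 0.5 h replicate 2 (0.55). PER1 (-0.79 ± 0.24, adjusted p = 0.11) and PER2 (-0.58 ± 0.18, adjusted p = 0.11) did not. Without R8 0 h replicate 3 both PER genes passed at 0.5 h (-0.96 and -0.72, adjusted p = 0.0086 and 0.0028) and at 2 h (-0.87 and -0.60, adjusted p = 0.0056 and 0.0067). Without R8 2 h replicate 2, PER1 (-0.86) and NR1D1 (-0.53) passed at 2 h.

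**Figure D3:**
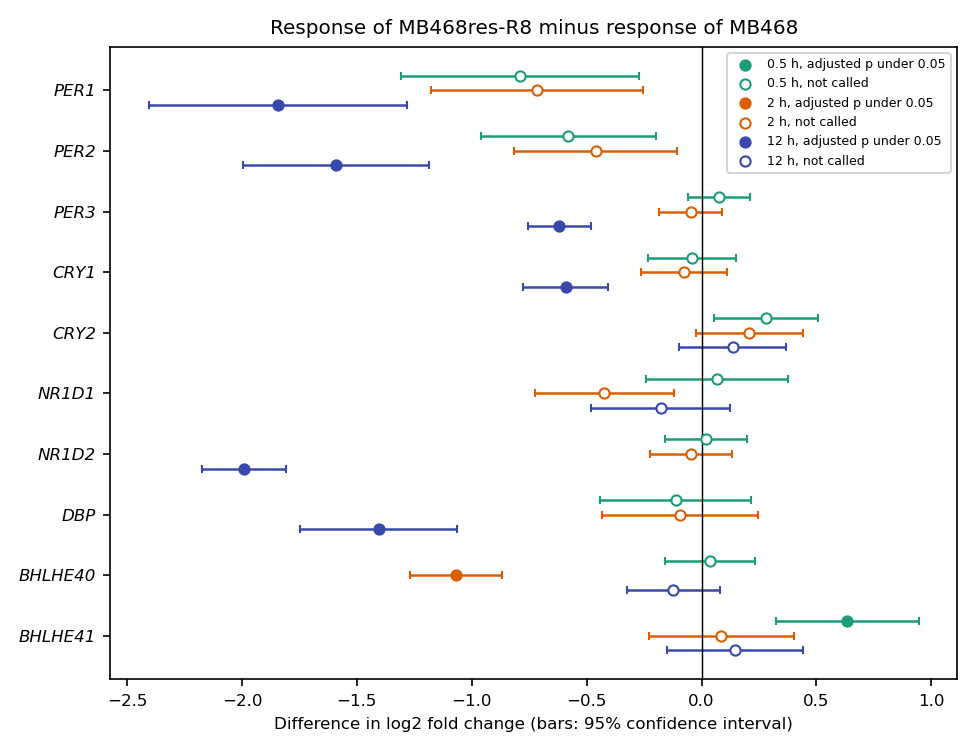
Change from 0 h in MB468res-R8 minus the change in MB468 (x axis, log2, bars: 95% confidence intervals) for each clock gene (y axis) at 0.5, 2 and 12 h, with filled points for adjusted p under 0.05 by edgeR. NR1D2, PER1, PER2, DBP, PER3 and CRY1 lie left of 0 at 12 h, BHLHE40 at 2 h, and BHLHE41 lies right of 0 at 0.5 h.

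These values rest on TMM scaling, which sets the bulk of genes to no change. Scaling by the ERCC spike-in RNAs added to each library instead moved the median of all genes by -0.31 between the lines at 0 h, and by -0.20, -0.42 and -0.23 in MB468 at 0.5, 2 and 12 h. In R8 the shifts were 0.042 and -0.041 at 0.5 and 2 h and 0 at 12 h. Relative to that median every member's value stayed within 0.0386 of the TMM one, but counts of calls moved. The spike-in share of reads also differed within groups, at 0.214%, 0.277% and 0.288% in the R8 0.5 h libraries and 0.296%, 0.226% and 0.246% at 12 h. Some calls were lost with hardly any change of value, as for CRY1 at 12 h in R8 (log2 -0.247 with TMM and -0.249 with spike-ins). How far the spread of the spike-ins accounts for lost calls was not tested. With spike-ins, 2 members were higher and 3 lower in R8 at 0 h. In MB468, 2 were higher and 5 lower at 0.5 h, 3 and 3 at 2 h, and 1 and 5 at 12 h. In R8, 4 were higher and 2 lower at 0.5 h, 2 were higher at 2 h, and 1 was higher and 7 lower at 12 h. From 2 to 12 h, 2 were higher and 4 lower in MB468, where PER3 (-0.018, adjusted p = 0.92) and CRY2 (-0.27, adjusted p = 0.12) lost their calls and DBP (0.39, adjusted p = 0.027) gained one, and 9 were lower in R8, where BHLHE41 lost its call (0.26, adjusted p = 0.19). The differences of response that held at 12 h were those of PER1, PER2, NR1D2 and DBP, while PER3 (-0.40, adjusted p = 0.073) and CRY1 (-0.38, adjusted p = 0.099) lost their calls. The BHLHE40 difference at 2 h held (-0.69, adjusted p = 0.0081), and that of BHLHE41 at 0.5 h was lost (0.87, adjusted p = 0.068).

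The activator arm, the partners that switch the loop on, held a steady gene, ARNTL, beside others that changed. ARNTL, which encodes BMAL1, read 487 ± 41.8 (SD, n = 3) in MB468 and 459 ± 25.9 in R8 at 0 h, and 518 ± 28.0 and 479.7 ± 15.9 at 12 h. It passed against 0 h only at 0.5 h in MB468 (log2 0.28 ± 0.073, adjusted p = 0.0022), and its 12 h values were 0.10 ± 0.071 in MB468 (adjusted p = 0.21) and 0.066 ± 0.074 in R8 (adjusted p = 0.45). CLOCK went from 1136 ± 94.7 to 1566 ± 54.2 in R8 (log2 0.47 ± 0.061, adjusted p = 1.3e-08). In MB468 its 12 h value was 1369 ± 32.6 (log2 0.085 ± 0.059, adjusted p = 0.2), and the responses differed (log2 0.38 ± 0.085, adjusted p = 1.7e-04). NPAS2, which can stand in for CLOCK, fell at 0.5 h by nearly the same amount in both lines (log2 -0.73 in MB468 and -0.73 in R8) and rose by 12 h (log2 0.90 ± 0.067 in MB468, adjusted p = 4.3e-15, and 0.71 ± 0.071 in R8, adjusted p = 2.8e-11). ARNTL2, the paralogue of ARNTL, rose at 12 h by log2 0.36 ± 0.13 in MB468 (adjusted p = 0.012) and 1.33 ± 0.14 in R8 (adjusted p = 5.3e-11). RORB was at 0 reads throughout. Of the 5 activator genes tested, 2 were higher at 12 h in MB468, where 70.6% of all genes passed and 34.6% were higher (median log2 0.36, -0.016 over all genes), and 3 were higher and 1, RORA, lower in R8, where 61.7% passed (median 0.47).

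**Figure D4:**
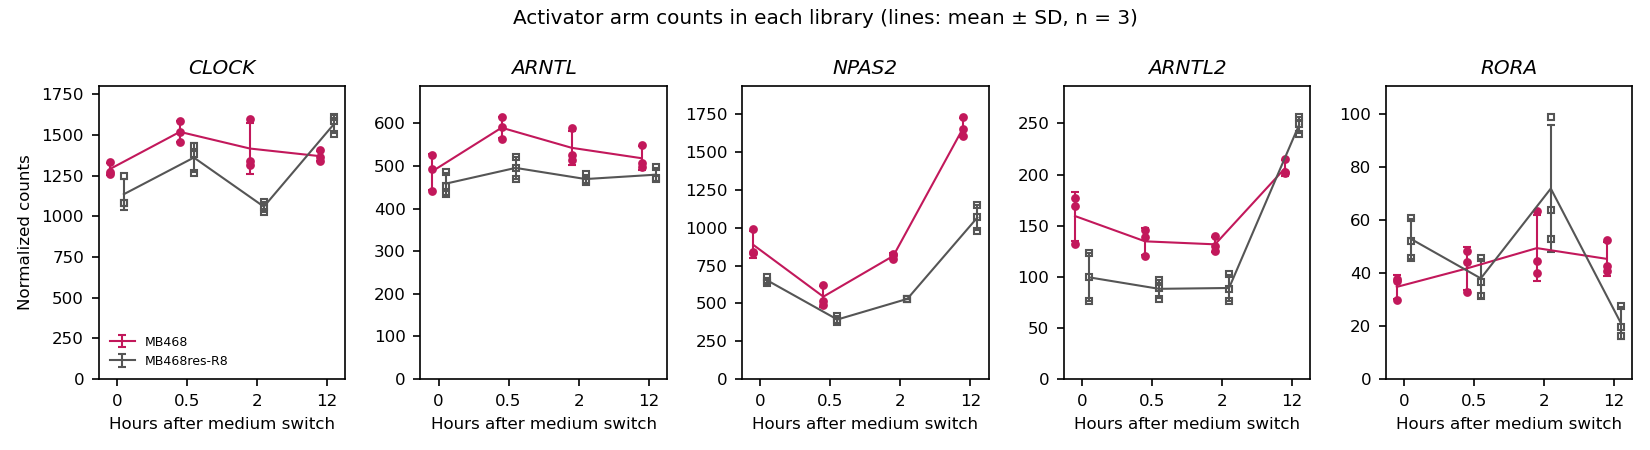
Normalized counts (y axis, from 0) of 5 activator arm genes by hours after the medium switch (x axis, evenly spaced times), with 1 point per library and lines joining group means ± SD (n = 3). ARNTL stays between 436 and 614 in every library, and NPAS2 dips at 0.5 h and is highest at 12 h in both lines.

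Among 8 genes whose products modify, degrade or bind the clock proteins, 6 could be tested. At 12 h 4 were higher and 2 lower in MB468 and 3 higher and 3 lower in R8 (medians 0.24 and -0.040). Of all genes, 70.6% and 61.7% were called in either direction. TIMELESS, which also acts at replication forks, fell in MB468 (log2 -1.16 ± 0.042, adjusted p = 4.9e-25) and less in R8 (-0.41 ± 0.042, adjusted p = 4.6e-11, difference 0.75 ± 0.059, adjusted p = 6.6e-14). SIRT1, a NAD-dependent deacetylase, rose in MB468 (log2 0.76 ± 0.051, adjusted p = 9.5e-17) and in R8 (0.25 ± 0.053, adjusted p = 9.1e-05), with a difference of -0.52 ± 0.073 (adjusted p = 1.1e-07). GSK3B, a kinase of several clock proteins, was -0.28 ± 0.043 in MB468 (adjusted p = 3.2e-07) and -0.46 ± 0.043 in R8 (adjusted p = 3.9e-12). The kinase gene CSNK1E had at most 10 reads in any library, and shares 46.7% of its main transcript with a read-through gene that was not used here, and its level was not assessed.

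Among 11 other outputs of the clock, 3 were higher and 6 lower at 12 h in MB468 and 9 were lower in R8 (medians -0.24 and -0.69), and 8 responded differently between the lines, all lower in R8. Of all genes 70.6% were called in MB468, 29.7% were lower in R8, and 56.8% responded differently, 28.2% lower in R8. NFIL3 (E4BP4), which represses from the same D-box that DBP activates, rose 4.63-fold in MB468, from 225 ± 11.8 to 1037 ± 45.5 (log2 2.21 ± 0.091, adjusted p = 2.8e-23). R8 read 269.8 ± 19.0 and 252 ± 16.1 (log2 -0.11 ± 0.10, adjusted p = 0.35). The difference was log2 -2.32 ± 0.14 (adjusted p = 9.9e-18), with DBP and NFIL3 both lower in R8. TEF, the relative of DBP that binds the same element, fell in both lines (log2 -0.89 ± 0.071 in MB468, adjusted p = 2.9e-14, and -1.14 ± 0.080 in R8, adjusted p = 1.4e-15). TSC22D3 (GILZ), a glucocorticoid target, fell from 1274 ± 128 to 291 ± 36.9 in R8 (log2 -2.14 ± 0.100, adjusted p = 5.1e-15) and by less in MB468 (log2 -0.45 ± 0.081, adjusted p = 2.7e-05, difference -1.68 ± 0.13, adjusted p = 7.3e-11). KLF10, a TGF beta early response factor, rose in MB468 (log2 1.19 ± 0.057, adjusted p = 8.0e-21) and was -0.17 ± 0.060 in R8 (adjusted p = 0.013).

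Genes of the general early response rose at the same time as BHLHE40. All 9 early response genes rose at least 2-fold at 0.5 h in both lines, against 1.4% of all genes in MB468 and 1.21% in R8, with FOS at log2 5.27 ± 0.095 in MB468 and 5.16 ± 0.091 in R8 (adjusted p = 5.1e-23 and 3.5e-23) and DUSP1 at 4.37 ± 0.074 and 4.53 ± 0.073 (adjusted p = 1.0e-24 and 5.1e-25). At 2 h all 9 were still up in MB468 (median log2 1.82, against 8.5% of all genes), and 4 were higher and 2 lower in R8, where 4.34% of all genes passed (median -0.16). At 12 h all 9 were lower in R8 (median -2.16, against 29.7% of all genes) and 5 were higher and 3 lower in MB468 (median 0.18, 70.6% of all genes called). SIK1 of this list has a near-identical copy, so its own level is uncertain. The 10 hypoxia targets were mixed, with 3 higher and 4 lower at 12 h in MB468 and 3 higher and 5 lower in R8, against 70.6% and 61.7% of all genes called. Of these, VEGFA was log2 1.05 in MB468 and -0.15 in R8 at 12 h, P4HA1 -0.78 and 0.16, ADM 0.25 and -1.70, and CA9 -0.093 and 0.81 (adjusted p = 1.9e-22 and 0.0062, 2.9e-11 and 0.081, 0.0031 and 7.7e-22, and 0.4 and 1.9e-12). The part of either list in the clock gene results was not tested.

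Likeness of pattern was measured by Pearson's r of log2 CPM over the 24 libraries among 9874 well-expressed genes, as a description, since libraries of 1 group share line and time. The genes most like PER1 were USP2 (r = 0.9799), a deubiquitinase gene on the output list, and PVRL4 (r = 0.974), a nectin adhesion gene. USP2 dropped from 959 ± 230.0 at 0 h to 118 ± 12.0 at 12 h in R8 (log2 -3.04 ± 0.18, adjusted p = 5.0e-11). MEF2D, a myocyte enhancer factor gene (r = 0.982), and PER1 itself (r = 0.956) were most like PER2. BHLHE40 was most like MYC (r = 0.974) and ZFP36L1, an mRNA decay factor (r = 0.950). For NR1D1 the likeness was looser, with SEMA7A, a semaphorin (r = 0.856), and VDR, the vitamin D receptor (r = 0.850). Within a line, PER1 and PER2 had r = 0.985 over the 12 MB468 libraries and r = 0.996 over the 12 R8 libraries. PER3 and NR1D2 ran against each other in MB468 (r = -0.917) and together in R8 (r = 0.918).

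In order of mean level, PER1 ran from R8 at 12 h, the lowest, through MB468 at 12 h to MB468 at 0.5 h, MB468 at 0 h and R8 at 0.5 h, then R8 at 0 h, MB468 at 2 h and R8 at 2 h, the highest. The neighbours that overlapped in that order were MB468 0.5 h with MB468 0 h, MB468 0 h with R8 0.5 h, and R8 0 h with MB468 2 h. For PER2 the same 2 groups were lowest and the same 2 highest, and the 2 h groups of the lines overlapped. R8 at 12 h was the lowest of the 8 groups for PER1, PER2, PER3, NR1D2, DBP and BHLHE40, with no overlap with the next group for any of these 6.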

How the data were processed

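RNA was extracted with RNeasy Plus, and poly(A) libraries were prepared with TruSeq RNA v2 and ERCC spike-ins. Per the labels and the study's methods, the authors aligned single-end reads with HISAT2 2.1.0 to GRCh38/hg38 joined with the spike-ins and counted reads per gene with featureCounts (Subread 1.5.3). They then used RUVSeq for unwanted variation and DESeq2 for differential expression, and the paper describes sequencing at 0, 2 and 12 h only. The main fit here held no term for unwanted variation and included the 0.5 h libraries. The annotation release was not given in the sources used here. The deposited counts were used as raw whole numbers. A table of normalized counts without the 0.5 h libraries and the authors' table of fold changes and p-values were not used.

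The 92 spike-ins were left out. Where a symbol was entered more than once, its first entry was kept, and 4 later entries were dropped. Counts of 14739 genes that passed filterByExpr (at least 10 counts, total 15) were fitted with 8 group means over 24 libraries. The fit used edgeR 4.0.16 (R 4.3.3, limma 3.58.1), TMM scaling and the robust quasi-likelihood F test, two-sided. Within each of 12 comparisons, 3 of them differences of response between the lines, a gene was called where its p, adjusted by Benjamini and Hochberg's method over all tested genes, was below 0.05. SE is the log2 value divided by the root of F. Intervals are 95% and hold at the fit's degrees of freedom.

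Length scaling used the canonical GENCODE v44 transcript, and promoters came from RefSeq. The kit does not mark strand, so reads of overlapping antisense genes cannot be told apart. Some annotated overlaps were not examined. They are MIR6883 and a protein-coding gene on the strand of PER1 (78 and 30 shared exon bases), and antisense noncoding genes over PER2 (188), PER3 (482) and CRY1 (94). Transcript length and annotation may differ from those the authors used. Counting without molecular identifiers means that depth covers reads, not molecules.

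The 10 members were all named. ARNTL and CLOCK were named as well, as were THRA, SPHK2, UTS2, SSPN and BHLHE40-AS1, which share exon bases with a member. So were the 2 genes of most similar pattern for PER1, PER2, NR1D1 and BHLHE40. From each other list the 2 genes with the lowest adjusted p at 12 h in either line were named (early response: at 0.5 h). Some genes of these lists are not reported here, and list counts and medians leave them out. Members and lists were chosen with earlier results of these data known. Alternatives were DESeq2 1.42.0 size factors and its Wald test, spike-in totals, leaving low counts in, a minimum of 10 reads for each library, only the libraries compared, a replicate block, an adjusted p of 0.01, libraries thinned to 11712531 counts, and leaving out each library. The fit was tested on simulated counts in which 200 of 14391 genes changed in the MB468 12 h group, up and down equally, with the same spread for every gene. It called 100% of the changed genes, and 4.31% of its calls were unchanged genes. With so few genes changed, the simulation does not test TMM scaling where most genes change.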

Additional observations from a re-analysis of the deposited data

Results flagged for a closer look

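The change after the medium switch differed between the lines by the direct test for 8 results, each picked out for that reason. At 12 h the value in R8 minus that in MB468 was log2 -1.99 for NR1D2, -1.84 for PER1, -1.59 for PER2, -1.41 for DBP, -0.62 for PER3 and -0.59 for CRY1 (edgeR adjusted p from 7.3e-21 to 9.8e-06). NR1D2, CRY1 and DBP were called higher than at 0 h in MB468 and lower in R8, although the MB468 libraries of DBP overlapped those of 0 h. With spike-in scaling the differences of PER3 and CRY1 were not called (adjusted p = 0.073 and 0.099), nor were the MB468 rises of CRY1 and DBP (0.41 and 0.45) or the R8 fall of CRY1 (0.13), which left NR1D2 as the 1 gene called in opposite directions. At 2 h the value for BHLHE40 was -1.07 (adjusted p = 5.4e-08), and at 0.5 h that for BHLHE41 was 0.63 (adjusted p = 0.011, and 0.068 with spike-in scaling). Early response genes differed in the same direction as BHLHE40 at 2 h (8 of 9 lower in R8, against 2.84% of all genes, median log2 -1.80), and their part in the result was not tested.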

How the results depend on the processing

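For single genes, of 1980 values recomputed under the alternatives, 1834 kept their direction and side of the threshold, 70 lost a call, 35 gained one, 37 changed sign but were called in neither fit (13 of them with spike-in totals as library sizes), and 4 changed sign with a call in at least 1 of the fits. The 4 came with spike-in totals as library sizes: CRY1 at 0 h between the lines (-0.054), PER3 at 0.5 h in MB468 (-0.066), and CRY1 (-0.16) and NR1D2 (-0.36) at 2 h in MB468. Members called went from 7 to 3 at 0.5 h in MB468 at an adjusted p of 0.01, and from 3 to 1 at 2 h in R8 with only the libraries compared. Differences of response at 0.5 h went from 1 to 0 with spike-ins, with an adjusted p of 0.01 and with thinned libraries, and to 3 with DESeq2's Wald test. At 2 h they went from 1 to 2 with DESeq2's Wald test. The cause was not tested.

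Leaving out 1 library gave 6 to 8 members at 0 h, 4 to 7 at 0.5 h, 5 to 6 at 2 h and 8 to 9 at 12 h in MB468 (7 to 8 from 2 to 12 h), and 8 to 9, 3 to 3 and 9 to 10 in R8 (9 to 10 from 2 to 12 h). For MB468 at 0.5 h the 4 came without MB468 0 h replicate 3 and without MB468 0.5 h replicate 1. Differences of response gave 0 to 3 at 0.5 h, 1 to 3 at 2 h and 6 to 6 at 12 h. The 3 came without R8 0 h replicate 3 and, at 2 h, also without R8 2 h replicate 2, and the 0 without MB468 0.5 h replicate 2.

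Taken over all groups, replicate numbers did not pair the libraries. Same-numbered deviations had a mean r of -0.0198 over 6390 genes, against 0.0105 for different numbers. Single comparisons varied, with same-numbered means from -0.189 (R8 12 h versus 2 h) to 0.277 (R8 2 h versus 0 h). In the R8 2 h versus 0 h comparison same-numbered libraries tended to go together (r from -0.029 to 0.466), and different numbers had a mean r of -0.138. Deviations were taken from group means, which ties the same-numbered and different-numbered means to each other. The different-numbered mean is therefore not a separate check. The main fit held no replicate term. With a replicate block, members called went from 7 to 9 at 0.5 h in MB468, and differences of response from 1 to 3 at 0.5 h and from 1 to 3 at 2 h. Other member counts stayed within 1.5 times. BHLHE41 had the fewest reads (50 to 447 a library), which limits the detection of small changes of it.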
